A study of Mus musculus with 4 samples.

Results

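Calcium enters mitochondria through voltage-dependent anion channels (VDAC) in the outer membrane and the calcium uniporter in the inner membrane. The 9 genes described here encode that route and proteins linked to it. For the uniporter they are the pore Mcu, its essential partner Smdt1 (EMRE), the calcium-sensing gatekeepers Micu2 and Micu3, and the regulator Mcur1. The others are the outer-membrane channels Vdac1, Vdac2 and Vdac3, and the inner-membrane ion exchange protein Letm1, whose role in calcium exchange is debated. These 9 genes were taken by symbol from a table of 55487 genes, and all 9 passed the filter on low values. In pancreatic beta cells, calcium that reaches the mitochondrial matrix stimulates dehydrogenases and ATP production, which links glucose metabolism to insulin secretion.

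C57BL/6 mice aged 30 weeks gave the islets, which were used fresh for RNA. The control group was Ggcx flox/flox without Cre, and the knockout group was Ggcx flox/flox; Pdx1-Cre, so all mice carried the floxed allele of Ggcx, the gene for gamma-glutamyl carboxylase. Each group had 2 libraries, and each library pooled the islets of 2 mice. Pdx1-Cre acts in the pancreatic lineage, in exocrine as well as endocrine cells. No library carried Cre with an intact Ggcx, so the transgene and the loss of Ggcx cannot be told apart. The libraries held 47624630 to 51756221 reads assigned to genes. The control libraries are called by their column numbers, 2 and 3, because these do not match the numbers of the control samples.

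The target gene differed as labelled, with Ggcx at 5.89% and 16.2% of the control mean in knockout replicates 1 and 2. None of the 10 beta cell markers on a fixed list was absent from a library. The beta cell markers summed to 4.14% more in knockouts, without overlap between groups. Of these 10 markers, 5 had a log2 fold change above 0. Sums of the duct, endothelial and immune markers overlapped. The summed level of 12 acinar markers was 14793 and 16556 in controls and 7203 and 12462 in knockouts. For 7 stellate cell and fibroblast markers it was 2048 and 1543 in controls and 3319 and 2443 in knockouts. Limma called 0 of the 10 tested acinar markers and 1 of the 7 stellate ones. At an unadjusted p under 0.05 there were 10 and 6, against 14.1% of all tested genes. The 8 alpha cell markers summed to 19.9% more in knockouts and the 6 delta and PP cell markers to 17.8% more. For each sum both knockout libraries were above both controls, a pattern that 22.0% of all tested genes showed. Sums are carried by the most abundant hormone genes. The median log2 fold change of single markers was 0.46 for the alpha list, with 2 of 8 called by limma. It was 0.17 for the delta and PP list, with 1 of 6 called. Over all tested genes 0.621% were called. Of all the lists' markers, 1 immune gene was at 0 in a library. In whole islets, fewer cells of a type and less RNA per cell cannot be told apart, and the part of cell makeup in the values below was not tested.

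The comparison asked whether transcripts for mitochondrial calcium uptake differed between Ggcx knockout and control islets. No member was called at a limma adjusted p under 0.05 (0 of 9), beside 0.621% of all 16589 tested genes, of which 0.247% were higher and 0.374% lower in knockouts. None had an unadjusted p under 0.05 either, against 14.1% of all tested genes, and the lowest, that of Smdt1, was 0.0952. Knockout means lay between 0.289% (Mcur1) and 6.84% (Smdt1) above the control means. The largest fold that any member's 95% interval reached was 1.16. These intervals borrow spread from the other genes of the table, since 2 pools per group give 2 residual degrees of freedom.

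Values are normalized read counts, the authors' reads per gene scaled to library size. A log2 fold change sets knockout against control as log2(value + 1) and is followed by its standard error.

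**Figure D1:**
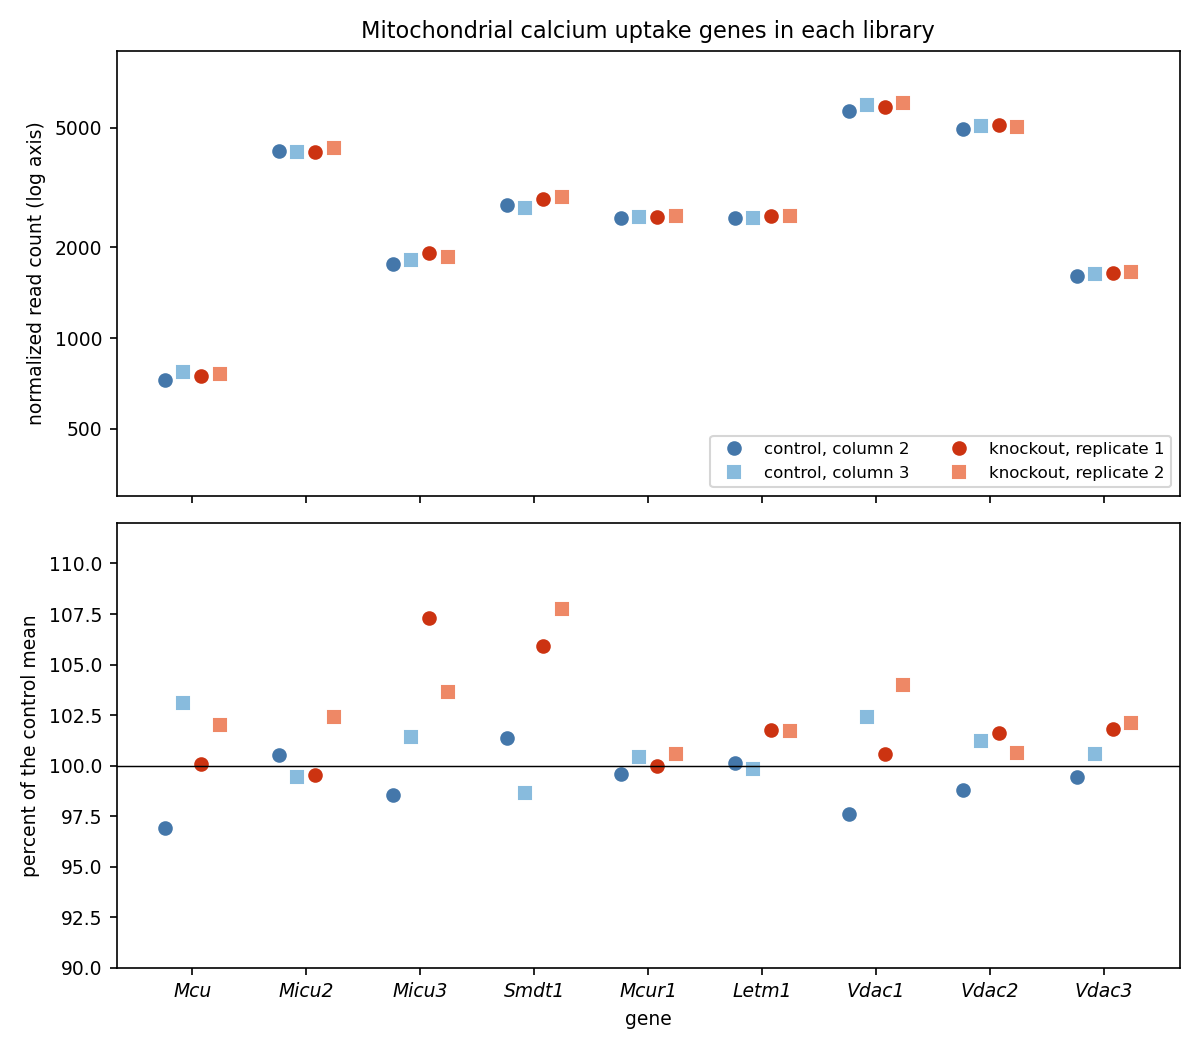
Normalized read count of each gene in each of the 4 libraries (upper, log axis) and the same value as a percent of the control mean (lower). Points are single libraries, each a pool of 2 mice, and the line marks the control mean. The knockout points of Smdt1, Micu3, Letm1 and Vdac3 lie above both control points, and the control points of Mcu are the farthest apart, by 6.19% of their mean.

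Mcu (ENSMUSG00000009647; GRCm38 chromosome 10, 59446984 to 59616692, minus strand) forms the calcium-selective pore of the uniporter. Its normalized count was 723.4 and 769.6 in control columns 2 and 3, and 747.3 and 761.3 in knockout replicates 1 and 2. Both knockout values fell between the control values. Controls averaged 747 ± 32.7 and knockouts 754 ± 9.95 (SD, n = 2 each). Mcu had a log2 fold change of 0.02 ± 0.07 with a limma adjusted p of 0.960, and the 95% interval ran from 0.900-fold to 1.14-fold. Mcu had the fewest reads of the members, 708 to 794 per library, for which counting error alone gives a coefficient of variation of 3.65%. The control libraries differed from each other by 6.19% of their mean, more than the 1.04% between the group means.

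Smdt1 (ENSMUSG00000022452; chromosome 15, 82338959 to 82349091, plus strand) encodes EMRE, the small single-pass protein that animal uniporters need to conduct calcium and that ties the pore to its gatekeepers. Its normalized count was 2774 and 2699 in controls and 2899 and 2949 in knockouts. Both knockout libraries were above both controls. Its log2 fold change, 0.10 ± 0.05, was the largest among the members, but it did not pass the test (limma adjusted p = 0.460), and its interval ran from 0.986-fold to 1.16-fold. Exons of Smdt1 share 245 bases, 16.6% of their length, with Pheta2, a gene on the same strand with a mean normalized count of 21.2. How many Smdt1 reads fall in the shared bases was not measured.

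Micu2 and Micu3 encode EF-hand proteins of the intermembrane space that sense calcium and gate the pore. MICU2 helps to keep the channel closed at resting calcium, while MICU3 is best known from nervous tissue as an enhancer of uptake. Micu2 (ENSMUSG00000021973; chromosome 14, 57916261 to 57999262, minus strand) stood at 4192 and 4147 in controls and 4149.6 and 4271 in knockouts, with overlapping groups. Its log2 fold change was 0.01 ± 0.05 (limma adjusted p = 0.940; interval 0.936-fold to 1.09-fold). Micu3 (ENSMUSG00000039478; chromosome 8, 40307458 to 40386308, plus strand) stood at 1762 and 1813 in controls and 1918 and 1853 in knockouts. Both knockout values were above both controls, as for Smdt1. Micu3 had a log2 fold change of 0.08 ± 0.06, which did not pass the test (limma adjusted p = 0.610; interval 0.965-fold to 1.15-fold). Micu3 exons share 202 bases with Fgf20 on the opposite strand, which had a mean of 69.2. The sources used here do not say whether counting used strand.

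Mcur1 (ENSMUSG00000021371; chromosome 13, 43538393 to 43560191, minus strand) encodes a coiled-coil protein of the inner membrane that has been described as a scaffold for uniporter assembly. It stood at 2510.5 and 2531 in controls and 2521 and 2535 in knockouts. The groups overlapped, and the difference of their means was the smallest among the members, with a log2 fold change of 0.00 ± 0.05 and an interval of 0.926-fold to 1.09-fold (limma adjusted p = 0.985).

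Letm1 (ENSMUSG00000005299; chromosome 5, 33739673 to 33782817, minus strand) encodes an inner-membrane protein tied to potassium-proton exchange, with a debated role in calcium-proton exchange. Its counts were 2505 and 2498 in controls and 2546 and 2544 in knockouts. The groups did not overlap, and replicates were close: 2502 ± 5.35 and 2545 ± 1.31 (SD, n = 2 each). The difference was 1.73% of the control mean, and counting error alone at this depth gives a coefficient of variation of 1.99%. Letm1 had a log2 fold change of 0.02 ± 0.05 (limma adjusted p = 0.882; interval 0.939-fold to 1.10-fold).

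The VDAC genes encode the barrel-shaped outer-membrane channels through which metabolites and calcium pass. They are paralogues, so it was checked whether reads could be assigned to each. Coding sequences from GENCODE release M21 were 70.7% identical between Vdac1 and Vdac2, 72.7% between Vdac2 and Vdac3 and 66.7% between Vdac1 and Vdac3. The longest run identical in an aligned pair was 17 bases. The most similar ungapped stretch of 60 coding bases is shown for the 3 genes, 5′ to 3′, to show how far apart they are even there, with the 17 positions that are not the same in all 3 in capitals.
Vdac1: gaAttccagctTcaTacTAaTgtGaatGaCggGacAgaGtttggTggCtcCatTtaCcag
Vdac2: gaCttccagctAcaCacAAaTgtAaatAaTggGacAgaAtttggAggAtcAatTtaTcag
Vdac3: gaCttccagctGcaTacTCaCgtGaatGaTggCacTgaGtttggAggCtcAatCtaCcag
Each stretch crosses one exon junction on GRCm38: exons 6 and 7 of Vdac1 (chromosome 11, 52384055 to 52385619, plus strand), exons 7 and 8 of Vdac2 (chromosome 14, 21838596 to 21840455, plus strand) and exons 6 and 7 of Vdac3 (chromosome 8, 22579106 to 22580362, minus strand). Pseudogenes were closer than the paralogues. Of the 50-base words in Vdac3 transcripts, 12.8% also occur in 3 annotated pseudogenes, most of them in Vdac3-ps1, which had a mean normalized count of 32.7. The share was 4.06% for Vdac2, in the pseudogene Gm7832 (mean 9.50), and 1.41% for Vdac1. The sources used here do not say how reads that match several places were treated, so the level of Vdac3 is the least certain of the 3.

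Vdac1 (ENSMUSG00000020402), the isoform best known at contacts with the endoplasmic reticulum, stood at 5682 and 5960.1 in controls and 5854 and 6053 in knockouts. The groups overlapped, and the log2 fold change was 0.03 ± 0.05 (limma adjusted p = 0.829; interval 0.946-fold to 1.11-fold). Vdac2 (ENSMUSG00000021771), which also binds the apoptosis effector BAK, stood at 4946 and 5069 in controls and 5089 and 5038 in knockouts. These groups overlapped as well, with a log2 fold change of 0.02 ± 0.05 (limma adjusted p = 0.924; interval 0.939-fold to 1.09-fold). Vdac3 (ENSMUSG00000008892), the least studied isoform, stood at 1611 and 1629.8 in controls and 1649.6 and 1655.0 in knockouts. Its knockout libraries were both above the controls by a small margin. Its log2 fold change was 0.03 ± 0.06 (limma adjusted p = 0.878; interval 0.933-fold to 1.11-fold).

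In 4 of the 9 genes (Smdt1, Micu3, Letm1 and Vdac3) both knockout libraries were above both controls, a pattern that 22.0% of all tested genes showed, and in none were both below (23.0% of all tested genes). Log2 fold changes were above 0 for 9 of 9 members, against 50.1% of all tested genes, but scaling each library to a common total turned Mcur1 to -0.0036 (47.1% of all tested genes above 0), and leaving out control column 2 turned Mcu, Mcur1, Vdac1 and Vdac2 below 0. They were above 0 for 9 of 9 members with a common upper quartile (56.7% of all tested genes), edgeR (51.6%) and DESeq2 (50.6%). The members' median was 0.02, that of all tested genes 0.00. Of 6556 tested genes with a mean between those of Mcu and Vdac1, 42.3% were above 0, and the median was -0.02. The median size of the log2 fold change, without its sign, was 0.02 for the members, 0.06 for the genes in that range and 0.10 for all tested genes. These are descriptions with no test, since members of 1 library share its scaling.

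**Figure D2:**
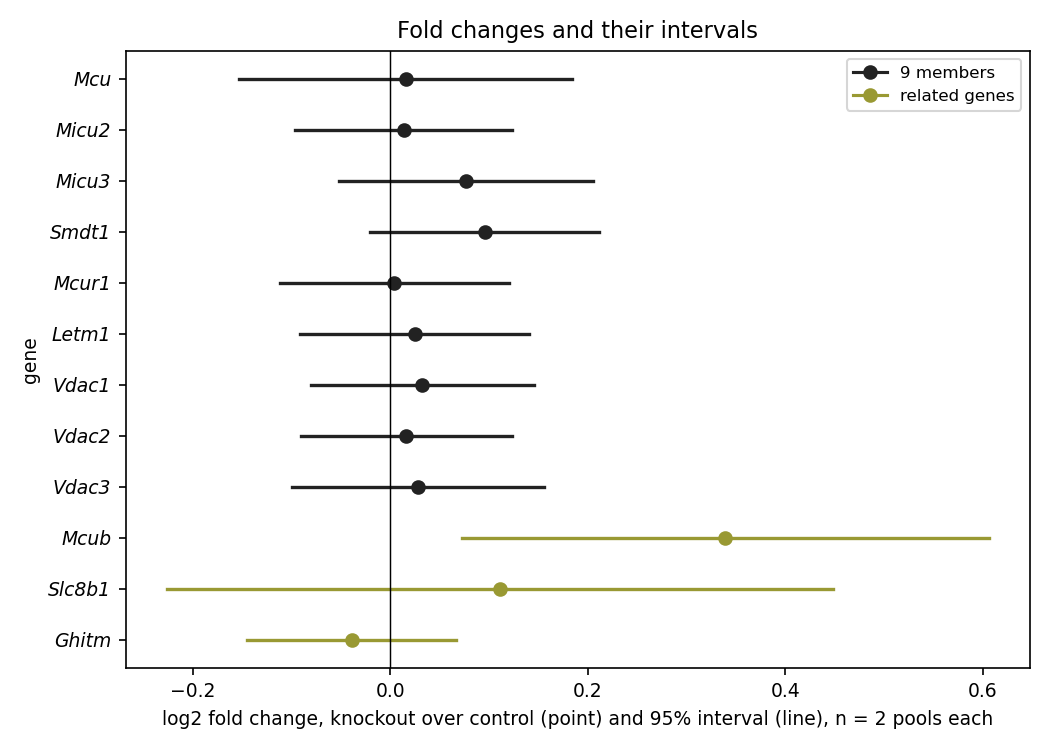
Log2 fold change (knockout over control, point) with its 95% interval from limma (line) for the 9 members and for Mcub, Slc8b1 and Ghitm, with 2 pools per group. The interval of each of the 9 members holds 0, and that of Mcub lies above 0 before adjustment over all genes.

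By the other tools run on the reads recovered from the values, edgeR called 0 of 9 members (lowest adjusted p 0.422, with 0.772% of all genes called) and DESeq2 called 0 of 9 (lowest adjusted p 0.904, with 2.58% of all genes that received an adjusted p called). No member (0 of 9) in the authors' deposited table had an adjusted p under 0.05, and the lowest was 0.957, that of Smdt1. That table called 2.35% of its 13381 genes with an adjusted p.

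Levels of different genes were compared only per length, as normalized reads per kb of exon, as a mean ± SD over the 4 libraries. On the union of all annotated exons, Vdac1 was highest at 2247 ± 60.8, followed by Smdt1 at 1914 ± 77.2, Micu2 at 1359 ± 18.7 and Vdac2 at 1056 ± 13.2. Mcur1 (357 ± 1.56), Vdac3 (302 ± 3.68), Micu3 (298 ± 10.7) and Letm1 (261 ± 2.61) followed, and Mcu was lowest at 108 ± 2.92. The ranges of Vdac3 and Micu3 overlapped, so these 2 were not ordered, while the other neighbours did not overlap in any of the 4 libraries. On the length of the principal coding transcript, Smdt1 came first at 4015 ± 162, before Vdac1 at 2912 ± 78.8, Vdac2 at 2577 ± 32.3 and Micu2 at 1799 ± 24.8. Vdac3 then stood at 1209 ± 14.7, above Micu3 at 828 ± 29.8, and Mcu was again lowest, at 261 ± 7.04. No neighbours overlapped on this scale. The SD covers the spread between libraries and not the choice of length. As a ratio of the 2 scales, Vdac3 moved the most.

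**Figure D3:**
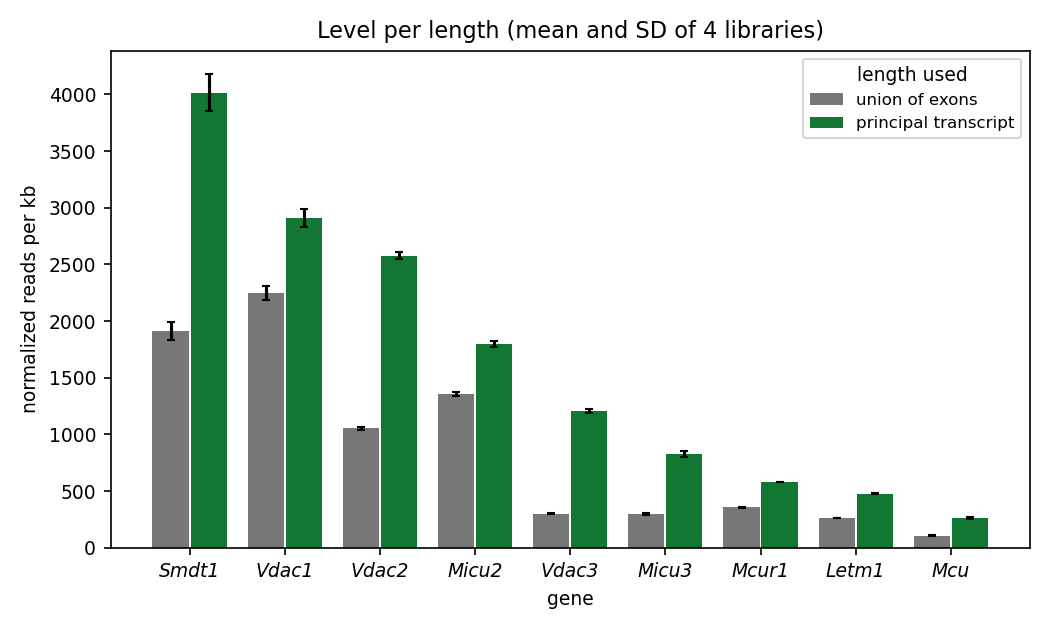
Normalized reads per kb for each gene, as the mean of 4 libraries with the SD, using the union of annotated exons or the principal coding transcript as the length. Mcu is lowest on both scales, and the order of Smdt1 and Vdac1 changes with the length used.

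Per length, transcripts of Smdt1, Micu2 and Micu3 were above those of the pore gene Mcu in each library. Per kb of exon, Smdt1 stood at 17.2 ± 1.08 times Mcu in controls and 18.2 ± 0.0158 times in knockouts (SD, n = 2 each). Both knockout values, 18.2 and 18.2, were above the controls at 18.0 and 16.4. Micu2 stood at 12.6 ± 0.647 times Mcu in controls and 12.6 ± 0.0901 times in knockouts, and Micu3 at 2.70 ± 0.0632 and 2.82 ± 0.106 times, both with overlapping groups. An exact permutation test of 2 against 2 libraries cannot go below p = 0.333 (two-sided), the value it gave for Smdt1. It gave 0.667 for Micu3 and 1 for Micu2. Transcript ratios are not ratios of protein, and with the principal transcript as the length the mean over 4 libraries was 15.4 for Smdt1, 6.89 for Micu2 and 3.17 for Micu3.

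Among the VDAC genes, Vdac1 gave 62.2% ± 0.436 of the summed level per kb of exon in controls (SD, n = 2) and 62.4% ± 0.673 in knockouts. Vdac2 gave 29.4% ± 0.279 and 29.2% ± 0.585, and Vdac3 8.38% ± 0.157 and 8.38% ± 0.0884. The groups overlapped for each of the 3 shares. With the principal transcript as the length, the mean shares over 4 libraries were 43.5%, 38.5% and 18.0%.

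Of 8 other subunits, assembly factors and regulators of the uniporter, limma called 0 in either direction, against 0.621% of all tested genes. In this list, 1 had an unadjusted p under 0.05 in the upward direction, against 6.74% of all tested genes. That gene was Mcub, which encodes a pore paralogue that lowers the conductance of the channel. Its normalized count was 230.9 and 265.0 in controls and 326.8 and 300.1 in knockouts, so both knockout libraries were above both controls. For Mcub the log2 fold change was 0.34 ± 0.12 (limma adjusted p = 0.236), with an interval of 1.05-fold to 1.52-fold before adjustment. It ranged from 0.24 to 0.44 over 15 settings and was called in 0 of them. Per kb of exon it stood at 1.75 ± 0.0934 times Mcu in controls and 2.19 ± 0.160 times in knockouts, and 0.814 times in the mean with the principal transcript as the length. The summed stellate cell and fibroblast, alpha, delta and PP, and beta cell markers differed in the same direction, and the acinar markers in the other. Among the 10 single beta cell markers, 5 had a log2 fold change above 0, and the median was -0.01. The 7 macrophage and lymphocyte markers summed to 1909 and 1773 in controls and 1811 and 2059 in knockouts, with overlap. Sums of the duct and endothelial markers overlapped as well. The part of any of these cell types in the Mcub values was not tested.

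The 2 most abundant members of this list per kb were the inner-membrane protease gene Yme1l1, at 0.04 ± 0.05, and the arginine methyltransferase gene Prmt1, at -0.01 ± 0.05, as log2 fold changes. The list's median log2 fold change was 0.03, and 5 of 8 were above 0.

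For mitochondrial calcium export and other proposed routes, 0 of 6 tested genes were called (7 listed), against 0.621% of all tested genes. In this list, 0 had an unadjusted limma p under 0.05 in the upward direction and 1 in the downward direction. Over all tested genes these were 6.74% and 7.34%. That gene, Ucp2, named after its values were seen, stood at 13135 and 12954 in controls and 12064 and 11972 in knockouts. Its log2 fold change was -0.12 ± 0.04 (limma adjusted p = 0.284). Slc8b1, which encodes the sodium-calcium exchanger NCLX, was low, at 119.5 and 135.4 in controls and 133.2 and 141.9 in knockouts. Its interval was accordingly wide, 0.855-fold to 1.36-fold, around a log2 fold change of 0.11 ± 0.15 (limma adjusted p = 0.800). Ghitm, also known as TMBIM5 and linked to calcium-proton exchange, stood at 10522 and 10564 in controls and 10465 and 10061 in knockouts. Both knockout libraries were below both controls, with a log2 fold change of -0.04 ± 0.05 (limma adjusted p = 0.771). Tmem65, a gene tied to NCLX activity, was at 0.03 ± 0.05. The list's median was 0.01.

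Of 14 genes listed for calcium-responsive metabolism (enzyme subunits, regulators and carriers), 0 were called, against 0.621% of all tested genes. In this list, 1 had an unadjusted limma p under 0.05 in the upward direction and 2 in the downward direction. Over all tested genes these were 6.74% and 7.34%. Ogdh, a subunit of the calcium-sensitive 2-oxoglutarate dehydrogenase, was at -0.05 ± 0.05 and Pdha1, of pyruvate dehydrogenase, at 0.03 ± 0.05 (log2 fold change). Of 24 genes for contacts with the endoplasmic reticulum and for VDAC partners, 0 were called, against 0.621% of all tested genes. At an unadjusted limma p under 0.05, 1 was higher and 1 lower, against 6.74% and 7.34% of all tested genes. The list's median was 0.04. In 8 of the 24 both knockout libraries were above both controls and in 3 below, against 22.0% and 23.0% of all tested genes. The adenine nucleotide carriers Slc25a5 and Slc25a4, their most abundant members per kb, were at 0.08 ± 0.06 and 0.04 ± 0.05.

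General mitochondrial genes were set beside the members. Of 20 such genes for import, membranes and maintenance, 0 were called, against 0.621% of all tested genes. At an unadjusted limma p under 0.05, 0 were higher and 2 lower, against 6.74% and 7.34% of all tested genes. The 2 were Hspd1 and Tfam. Tfam, named after its values were seen, had a log2 fold change of -0.13 ± 0.05 (limma adjusted p = 0.337), with both knockout libraries below both controls. The list's median log2 fold change was 0.01, and 12 of the 20 were above 0. Their summed level was 107519 and 106891 in controls and 105193 and 105309 in knockouts, 1.82% lower in the mean. This direction rested on Hspd1: without it, a sum added after seeing the data, the other 19 genes came to 85292 and 84342 in controls and 85635 and 85021 in knockouts, which overlapped and were 0.602% higher in the mean. The chaperonin gene Hspd1, one of the 2 most abundant of this list, was at -0.17 ± 0.05 (limma adjusted p = 0.149), and the ATP synthase gene Atp5b at 0.02 ± 0.05.

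The genes whose values followed those of Mcu most closely over the 4 libraries were Usp28, Cxxc5 and Ubxn6, with Pearson's r on the log2 scale down to 0.9996 (Ubxn6). With 4 libraries such likeness is easily reached: 50 of 12254 genes compared had an r of at least 0.99.

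**Figure D4:**
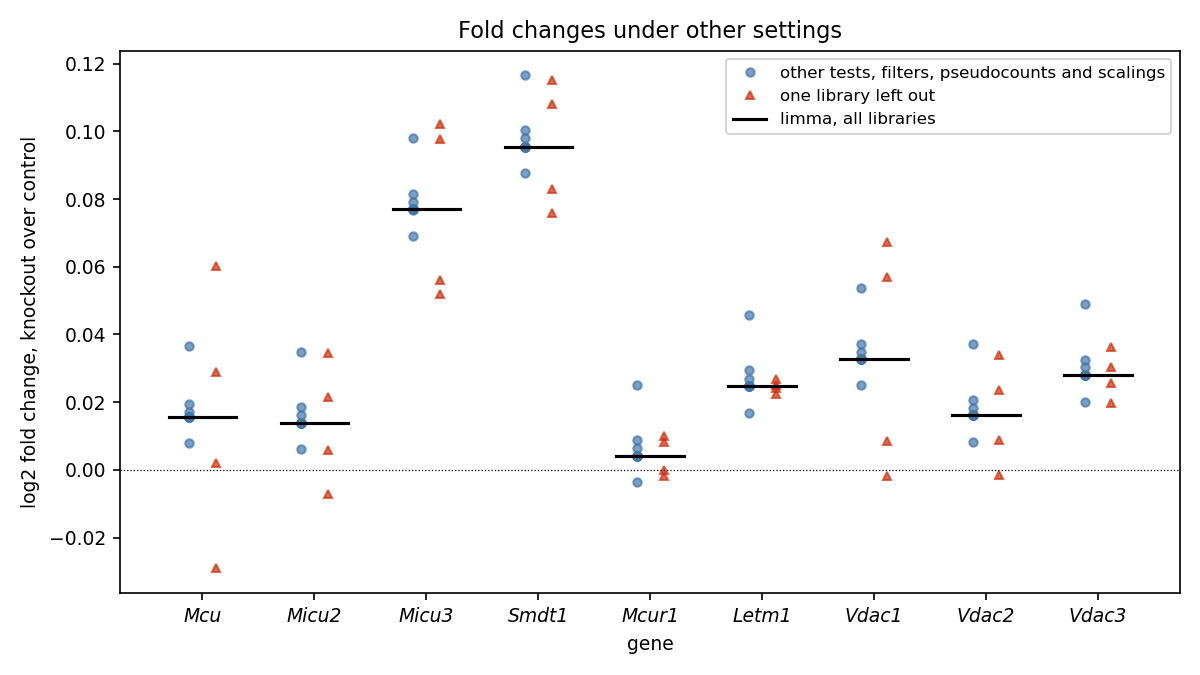
Log2 fold change of each member (knockout over control) with all libraries (black line), under other tests, filters, pseudocounts and scalings (circles) and with one library left out (triangles). Values stay between -0.029 and 0.117, and Mcu, Micu2, Mcur1, Vdac1 and Vdac2 have points on both sides of 0.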

How the data were processed

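Poly(A)-selected RNA of 4 islet pools was sequenced, 2 per genotype, per the labels' protocols. Build GRCm38 and the tools STAR 2.5.1b, featureCounts 1.6.0, CASAVA 1.4 and DESeq2 1.22.2 stand in the submitters' processing notes, without roles. The sources used here do not give the annotation or the strand setting. The authors deposited 1 signal value per gene and library, which the name of the table describes as counts scaled to library size. Their deposited log2 fold change, test score, p-value and adjusted p-value stand beside it for each gene, and only the p-values were used. The values were whole multiples of 1 read in 100% of cases (within 0.01 read), so reads were recovered. Columns of other samples numbered 0.

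The test was limma 3.58.1 (R 4.3.3; log2(value + 1), mean-variance trend, two-sided) on genes that reached 10 in 2 or more libraries, with Benjamini-Hochberg adjustment over all 16589 genes. The prior held 6.85 degrees of freedom. The p-values rest on pools that the labels list as separate samples. edgeR 4.0.16 and DESeq2 1.42.0 on recovered reads, other pseudocounts, filters, scalings and shrinkage, and leaving out each library were alternatives. The fit was tested on simulated data with changes larger than that of any member, so this does not cover changes of the size reported here. Lengths, exon overlaps and transcript sequences came from GENCODE M21 (GRCm38), where 99.5% of the gene identifiers were found.

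The members and lists were chosen with earlier results of these data known. Besides the 9 members, Ggcx, Mcub, Slc8b1 and Ghitm, the rule named the called genes of each wider list or, with none called, its 2 most abundant per kb of exon, and the 3 genes most like Mcu. One gene of the rule is not reported here.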

Additional observations from a re-analysis of the deposited data

How the results depend on the processing

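No member was called under any of the 14 other settings, and adjusted p-values of the members ranged from 0.354 (Smdt1, common upper quartile) upwards. That scaling was the one setting in which a member, Smdt1, had an unadjusted p under 0.05; it moved the median of all genes to 0.02. Directions turned for Mcur1 with a common total (-0.0036) and, in fits without 1 library, for Mcu (-0.029 to 0.0602), Micu2 (-0.007 to 0.0346), Mcur1 (-0.0017 to 0.01), Vdac1 (-0.0017 to 0.0672) and Vdac2 (-0.0015 to 0.0338). The other 120 of these log2 fold changes kept their direction and stayed uncalled. The largest fold in any member's interval was 1.20 without the mean-variance trend and 1.216 without knockout replicate 2, and the largest standard error rose from 0.07 to 0.12 with DESeq2. A lone library in such a fit is assumed to vary like the other group.

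Over all genes, limma called 41 higher and 62 lower (103), and 39 higher and 33 lower with a common upper quartile. The count was 2 with no filter on low values, 51 with a filter at 50, 0 without the trend (1841 at an unadjusted p under 0.05), 209 with robust empirical Bayes and 328 with DESeq2, and 97 to 397 with 1 library left out (397 without control column 2, 200 without knockout replicate 2). The cause was not tested.

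The union of exons gave mean ratios to Mcu of 17.7 (Smdt1), 12.6 (Micu2), 2.76 (Micu3) and 1.97 (Mcub). With the longest transcript they were 14.7 for Smdt1, 6.89 for Micu2 and 0.814 for Mcub. With the principal transcript, a length added after seeing the data, they were 15.4, 6.89, 3.17 and 0.814 in the order of the union. The shares of Vdac1, Vdac2 and Vdac3 were 50.4%, 42.8% and 6.79% with the longest transcript and 43.5%, 38.5% and 18.0% with the principal one. The length alone makes these differences.

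No paired analysis was possible because control columns are numbered 2 and 3 and control samples otherwise. Nor do the labels give a litter, batch or day shared by a control and a knockout pool, so no pairing is known.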

Other observations

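Among the 14 genes for calcium-responsive metabolism, the 3 with an unadjusted limma p under 0.05 are given here, chosen after their values were seen. Slc25a25, an EF-hand ATP-magnesium/phosphate carrier of the inner membrane, stood at 5278 and 6027 in controls and 4305 and 4571 in knockouts. Its log2 fold change was -0.35 ± 0.07 (limma adjusted p = 0.0631). It was called in 4 of 15 settings (robust empirical Bayes, DESeq2, without control column 2 and without knockout replicate 2), over adjusted p-values of 0.00247 to 0.421. Gpd2, the calcium-activated glycerol-3-phosphate dehydrogenase on the outer face of that membrane, stood at 5536 and 5209 in controls and 4596 and 4377 in knockouts. Its log2 fold change was -0.26 ± 0.05 (limma adjusted p = 0.0702), and it was called in 2 of 15 settings (robust empirical Bayes and DESeq2), over adjusted p-values of 0.0222 to 0.415. Both genes had both knockout libraries below both controls, as did 23.0% of all tested genes. Slc25a24, a carrier of the same kind as Slc25a25, stood at 309.6 and 364.3 in controls and, higher in both libraries, at 379.9 and 430.5 in knockouts. Its log2 fold change was 0.27 ± 0.12 and did not pass the test (limma adjusted p = 0.347).

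The calcium release channels of the endoplasmic reticulum that face VDAC1 at contact sites differed in direction, and were looked at after their values were seen. The log2 fold change was 0.27 ± 0.08 for Itpr1 (limma adjusted p = 0.176), -0.15 ± 0.09 for Itpr2 (limma adjusted p = 0.526) and -0.20 ± 0.06 for Itpr3 (limma adjusted p = 0.155). The value of Itpr1 rested on single libraries: it was 0.13 without knockout replicate 1 (limma adjusted p = 0.609) and 0.40 without knockout replicate 2 (limma adjusted p = 0.0154), the 1 of 15 settings in which it was called. Itpr3 was called in 0 of 15.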
